A study of Mus musculus with 15 samples.

Results

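Naive mouse B cells that had been activated in culture for 5 days were set against germinal centre (GC) B cells sorted from the spleen. The activated cells were all 9 libraries titled as activated naive cells, and the GC cells were all 3 libraries of that group, 12 of the 15 libraries of the series. The 3 remaining libraries, from naive B cells, entered no test and are given beside the results. Every mouse was a wild-type male 3 months old, immunised with sheep red blood cells, whose spleen was taken on day 9. B220-positive splenocytes were enriched magnetically, and naive and GC B cells were then sorted, with the gate not given. The activated libraries came from sorted naive cells kept in embryonic stem cell medium (KO-DMEM), with cytokines and medium renewed on days 0 and 3. Their titles name 3 stimuli, CD40, CpG and LPS, each with replicates lettered A, B and C. The doses were IL-4 at 80 ng/ml with antibody to CD40 at 5 µg/ml, CpG (a Toll-like receptor ligand) at 2 µM, or lipopolysaccharide (LPS) at 25 µg/ml. Use of IL-4 in the CpG and LPS cultures is left unclear by the labels. GC and naive cells were treated here as uncultured, following the sample labels, although the series text can be read otherwise. The labels do not say which animals the letters stand for, so p-values measure a spread between libraries that may be partly technical.

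Germinal centres form in lymphoid follicles when B cells meet antigen and receive help from T cells. Their B cells divide rapidly, mutate their antibody genes, and move between a dark zone of division and a light zone where T cells signal to them through CD40 and IL-4. The repressor BCL6 holds this state and keeps plasma cell genes off. Ligands of CD40, IL-4 and Toll-like receptors are used in culture to make naive B cells grow, divide and switch antibody class without the follicle, its follicular dendritic cells or antigen.

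Library totals ran from 25397624 to 36272197 counts, and none of 37 mitochondrial genes had a count in any library. Across the genes tested, log2 CPM (counts per 1e+06 of the scaled library size, with 0.5 added) correlated at 0.871 to 0.899 between an activated and a GC library and at 0.983 to 0.989 between GC libraries. Activated libraries with the same letter and different titled stimuli correlated at 0.983 to 0.993, and those with different letters at 0.962 to 0.979. The 9 libraries therefore grouped by letter and not by titled stimulus, and what the letters stand for was not tested. Whether letter and stimulus were exchanged in the titles cannot be told from the labels. Counts of the 3 libraries of each letter were summed, which gave 3 activated sums of 85552546 to 95536807 counts against 3 GC libraries. Immunoglobulin genes took 1.85% to 1.92% of counts in the activated libraries lettered A, 1.16% to 1.20% in B, 5.03% to 7.96% in C, and 1.56% to 1.93% in GC libraries. Ribosomal protein genes took 10.4% to 16.5% of counts in activated and 8.03% to 9.16% in GC libraries.

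Both groups carried B cell genes. Cd79a, which encodes a signalling chain of the B cell receptor, was at 1540.5, 1485 and 1509 CPM in GC and 884 to 1154 (median 1006) CPM in activated libraries (log2 fold change -0.59, SE 0.13, edgeR adjusted p = 0.00611). Some defining genes of other cells were near 0 in all 12 libraries: Cd3d, Cd3e and Cd3g of T cells reached at most 1.16 CPM, Csf1r and C1qb of macrophages 0.132 CPM and Ly6g of neutrophils 0. Other members of these lists were not. The 14 T cell genes summed to 46.6 to 69.0 CPM in activated and 262.5 to 310.7 CPM in GC libraries, and most of that sum was Lck and Cd2, which B cells also express. Lck was at 173, 159.5 and 163 CPM in GC and 23.8 to 41.9 (median 30.8) in activated libraries (log2 fold change -2.32, SE 0.15, edgeR adjusted p = 1.07e-05), and Cd2 at 136, 101 and 118 CPM in GC and 9.30 to 27.5 (median 13.9) CPM in activated libraries (log2 fold change -2.87, SE 0.24, edgeR adjusted p = 5.91e-05). The 10 dendritic cell genes summed to 122 to 485 CPM in activated and 54.3 to 59.1 CPM in GC libraries, carried by Flt3, Batf3, Zbtb46 and Bst2. Of the T cell genes, Cd8a had 0 counts in GC libraries and reached 5.68 CPM in culture. Clec9a was at 0 in all 12 libraries and Xcr1 reached at most 0.791 CPM. Natural killer cell genes summed to 5.50 to 11.3 CPM in activated and 16.7 to 19.7 in GC libraries, macrophage genes to 29.5 to 49.2 and 13.4 to 20.2, and neutrophil genes, nearly all Csf3r, to 4.0 to 30.2 and 0.764 to 0.857. Of 3 natural killer cell genes tested, 2 were called higher in culture (log2 fold change up to 8.77) and 1 lower. Of 7 macrophage genes tested, 2 were higher (up to 4.22), 3 lower and 2 not called. Among all genes tested 23.6% were higher and 21.5% lower. Erythroid and stromal genes summed to at most 9.58 and 58.9 CPM in any of the 12 libraries. The part of other cells in the results was not tested beyond these values. In bulk RNA, fewer cells that express a gene and less RNA per cell cannot be told apart.

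Of 16643 genes tested, 3924 were higher in activated cells (23.6% of the genes tested) and 3581 were lower (21.5%). Calls came from the quasi-likelihood test of edgeR, 2-sided, with 3 letter sums against 3 GC libraries and a threshold of 0.05 on p-values adjusted over all genes by the Benjamini-Hochberg method. At least 2-fold differences were found for 2738 of the higher and 1836 of the lower genes. A change was counted as shared by all 9 libraries where the call held, the fold was at least 2 and no activated library overlapped a GC library. By that rule 2406 genes were higher in all 9 (14.5%) and 1737 were lower in all 9 (10.4%). Over all genes tested the log2 fold changes had a median of 0.03. With the naive libraries added to the fit as another group, 2187 genes were called higher, 1849 lower, and 1089 lower in all 9. Naive replicates differed widely in the number of genes with a count, from 11523 to 18866.

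**Figure D1:**
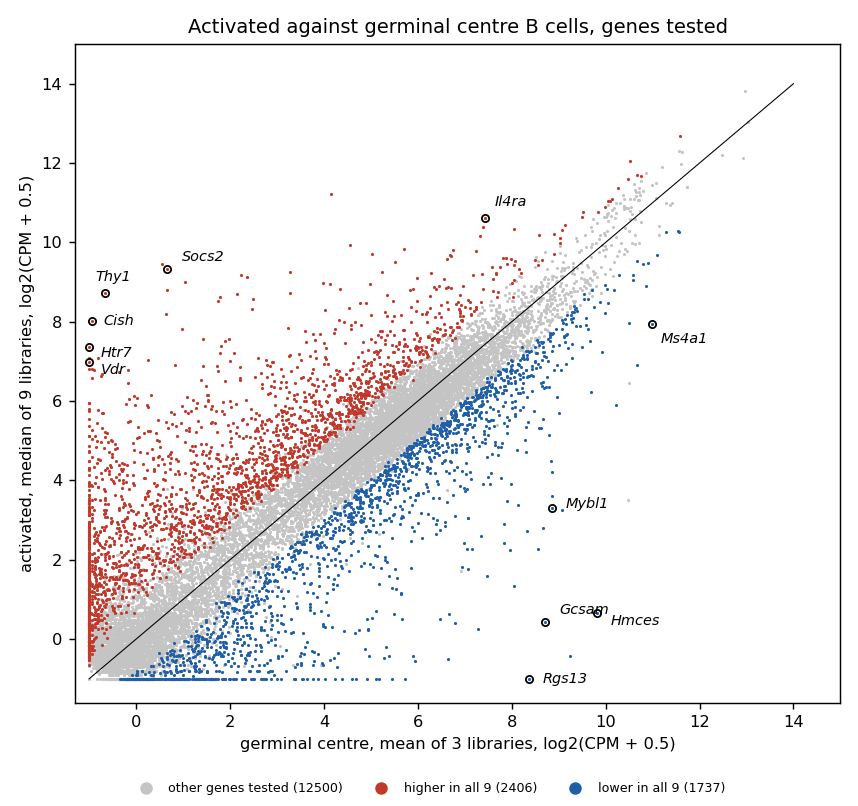
Median of the 9 activated libraries (vertical axis) against the mean of the 3 GC libraries (horizontal axis) for the 16643 genes tested, both as log2(CPM + 0.5), with the line of equal values. The 2406 genes higher in all 9 activated libraries (red) include many along the left edge, where GC libraries held almost no counts. The 1737 lower genes (blue) include Rgs13 at the bottom edge.

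Set beside the naive levels, the 1737 lower genes fell into 3 classes, described here without a test. In 726, GC libraries were at least 2 times the naive mean without overlap, and the activated mean was at most 2 times the naive mean or at most 1 CPM. These are called not induced, although some rose in culture within that limit. Pcna, for example, was at 202 to 285 CPM in activated and 94.9 to 171 CPM in naive libraries. In another 216, called partly induced, the activated mean was above both 2 times the naive mean and 1 CPM. Single activated libraries could still overlap the naive ones there, as for Mef2b (4.84 to 41.4 CPM in activated and 2.88 to 12.3 CPM in naive libraries). In the remaining 795 the GC libraries were not at least 2 times the naive mean without overlap. Of the 2406 higher genes, 1001 are called added. Their activated libraries were at least 2 times the naive mean without overlap. Their GC mean was at most 2 times the naive mean or at most 1 CPM, so some were above naive cells in GC as well. Xbp1, for example, was at 146 to 199 CPM in GC and 104 to 112 CPM in naive libraries. In a further 139, raised likewise in culture, the GC mean was above both of these limits. The other 1266 had other patterns, where culture was not at least 2 times the naive mean without overlap. In 374 of the 2406 higher genes all 3 GC libraries held 0 counts. The reverse, 0 counts in all 9 activated libraries, was found for 59 of the 1737 lower genes. These counts cannot be set against each other, since 9 libraries hold more reads than 3 and so leave fewer genes at 0.

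The 5 genes given as markers of this comparison were each at least 2-fold apart between the groups without overlap. Rgs13 (ENSMUSG00000051079), a regulator of G protein signalling that dampens chemokine responses in GC cells, was at 349.7, 312 and 325 CPM in GC libraries and had 0 counts in all 9 activated libraries. Against a floor of 3 counts over the 9 libraries it was at least 29447-fold lower (edgeR adjusted p = 6.34e-07). Gcsam (ENSMUSG00000022659), an adaptor that restrains the movement of GC B cells, was at 432, 465 and 358 CPM in GC and 0.0811 to 5.66 (median 0.851) in activated libraries (log2 fold change -7.76, SE 1.10, edgeR adjusted p = 0.00307). Mybl1 (ENSMUSG00000025912), a MYB family transcription factor of dividing GC cells, was at 453, 497 and 434 CPM in GC and 6.54 to 11.7 (median 9.32) CPM in activated libraries (log2 fold change -5.60, SE 0.19, edgeR adjusted p = 1.06e-06). All 3 were at 0 to 2.03, 0 to 0.139 and 0 to 3.26 CPM in naive libraries, so Mybl1 in culture lay above all naive and below all GC libraries, and Gcsam below all GC libraries. Htr7 (ENSMUSG00000024798), a serotonin receptor, had no count in any GC or naive library and was at 112 to 202 (median 164) CPM in activated libraries, at least 5243-fold higher than the GC floor (edgeR adjusted p = 2.62e-06). Vdr (ENSMUSG00000022479), the vitamin D receptor, likewise had no GC or naive count and was at 64.7 to 257 (median 126) CPM (at least 4722-fold higher, edgeR adjusted p = 0.00341). The Vdr levels differed by letter, with means of 72.1, 246 and 124 CPM in A, B and C, while Htr7 was at 189, 161 and 128 CPM.

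The stretches just upstream of the start sites of Rgs13, Hmces, Cish, Htr7 and Lin28a are shown because these genes were expressed in one group and at 0 or far lower in the other. They were chosen after their values were seen, and Lin28a because its window holds motif matches. They are RefSeq sequences of build GRCm38.p6, 5′ to 3′ on the strand of the gene, ending at the base before the start site, and the first bases of each transcript matched a GENCODE transcript of that gene. Capitals mark matches to TTCNNNGAA, the palindrome that STAT transcription factors bind.
Rgs13, chr1:144177373-144177502, minus strand: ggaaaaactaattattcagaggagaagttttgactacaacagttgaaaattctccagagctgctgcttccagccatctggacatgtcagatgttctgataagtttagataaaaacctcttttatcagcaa
Hmces, chr6:87913846-87913975, plus strand: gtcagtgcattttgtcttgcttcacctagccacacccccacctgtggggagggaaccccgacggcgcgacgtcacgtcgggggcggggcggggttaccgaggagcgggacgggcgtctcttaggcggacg
Cish, chr9:107296529-107296658, plus strand: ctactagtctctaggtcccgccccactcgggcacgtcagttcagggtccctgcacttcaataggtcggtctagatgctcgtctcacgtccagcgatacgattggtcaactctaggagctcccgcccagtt
Htr7, chr19:36057361-36057490, minus strand: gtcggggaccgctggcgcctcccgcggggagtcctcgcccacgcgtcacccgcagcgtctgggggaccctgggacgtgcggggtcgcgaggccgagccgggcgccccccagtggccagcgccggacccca
Lin28a, chr4:134018817-134019066, minus strand: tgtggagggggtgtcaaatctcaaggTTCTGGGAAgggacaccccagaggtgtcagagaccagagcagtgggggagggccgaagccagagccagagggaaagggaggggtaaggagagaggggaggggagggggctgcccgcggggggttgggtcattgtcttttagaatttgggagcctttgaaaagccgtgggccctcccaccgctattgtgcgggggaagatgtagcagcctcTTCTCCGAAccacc
For the shares that follow, whole RefSeq promoter windows, which run on past the start site, were searched on both strands. The motifs were ATGCAAAT (the octamer of POU factors), TTCNNNGAA, TTCNNNNGAA (the wider STAT palindrome of STAT6) and CTANNNNTAG (the core of the MEF2 site). TTCNNNGAA was found in 6.92% of the windows of genes not induced, in 6.15% of added genes and in 6.92% of all genes tested. The figures for TTCNNNNGAA were 4.67%, 5.95% and 5.43%, for the octamer 0.805%, 1.79% and 1.33%, and for CTANNNNTAG 3.87%, 3.27% and 3.10%. Windows were found for 500 of the 726 genes not induced and 751 of the 1001 added genes. For the 5 genes printed, only the 250 bases upstream of the start site were searched. Lin28a held 2 matches, starting 224 and 14 bases before the start site, and none of the 4 motifs was found there for the other 4 genes.

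Genes listed as GC transcription factors were mostly lower in culture. The list also holds the given marker Mybl1 and the adaptor Klhl6, which stands among the GC confinement and adaptor genes too. Of 20 tested, 15 were lower, 1 was higher and 4 were not called, and 11 were lower in all 9 libraries (median log2 fold change -1.23). For this and the lists that follow, the shares of all genes tested were 23.6% higher and 21.5% lower. In all 9 libraries those shares were 14.5% and 10.4%. Bcl6, the repressor that maintains the GC state, was at 420.3, 369 and 391 CPM in GC and 18.8 to 51.5 (median 39.8) in activated libraries (log2 fold change -3.47, SE 0.27, edgeR adjusted p = 4.87e-05). Every activated library was also below the lowest of the naive libraries, which were at 57.0 to 119 CPM. Mef2b, a MADS box factor that activates Bcl6, was at 455, 489 and 449 CPM in GC and 4.84 to 41.4 (median 18.0) CPM in activated libraries (log2 fold change -4.63, SE 0.66, edgeR adjusted p = 0.00282). Bach2, a repressor that delays plasma cell differentiation, was at 319, 301 and 325 CPM in GC and 26.5 to 83.4 (median 39.9) CPM in activated libraries (log2 fold change -2.73, SE 0.34, edgeR adjusted p = 0.00077). Id3, an inhibitor of E proteins, was at 87.3, 90.0 and 77.0 CPM in GC and 5.77 to 10.5 (median 7.54) CPM in activated libraries (log2 fold change -3.47, SE 0.16, edgeR adjusted p = 3.17e-06). Klhl6, an adaptor that GC formation needs, was at 784, 866 and 813 CPM in GC and 48.3 to 108 (median 74.5) CPM in activated libraries (log2 fold change -3.37, SE 0.22, edgeR adjusted p = 1.09e-05). In none of these 5 genes did activated and GC libraries overlap. Mef2c, a relative of Mef2b, was at 439.7, 415 and 384 CPM in GC and 456 to 1005 (median 537) CPM in activated libraries and was not called (edgeR adjusted p = 0.0548), although it was called higher without activated replicate B or C (edgeR adjusted p = 0.0154 and 0.0436). The B lineage factors Pax5 (-1.49, edgeR adjusted p = 0.000327), Ebf1 (-1.44, 0.000138) and Spib (-1.03, 0.00176) were also lower in all 9, by less. Pou2af1, the octamer coactivator, was at 2877, 2571 and 2542 CPM in GC and 1368 to 2476 (median 1953) CPM in activated libraries and was not called (edgeR adjusted p = 0.0732), although it was called lower without activated replicate A (edgeR adjusted p = 0.0311). Hhex went the other way, from 4.71, 4.85 and 5.01 CPM in GC to 4.81 to 17.3 (median 13.9) in activated libraries (log2 fold change 1.20, SE 0.38, edgeR adjusted p = 0.0304), where the groups overlapped. That call was lost under 7 of 18 alternatives, each single GC library and activated replicates B or C left out among them (adjusted p up to 0.107).

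In the list of GC confinement and adaptor genes, 14 of 17 tested were lower, 1 higher and 2 not called, and 11 were lower in all 9 (median log2 fold change -2.01). The list also holds GC genes of other roles, such as Nuggc and Klhl6, and the given markers Rgs13 and Gcsam. S1pr2, the sphingosine 1-phosphate receptor that holds cells in the follicle centre, was at 336, 318 and 304 CPM in GC and 4.66 to 8.67 (median 6.13) in activated libraries (log2 fold change -5.67, SE 0.21, edgeR adjusted p = 1.5e-06). Gna13, its G protein partner, was at 305, 317 and 264 CPM in GC and 109 to 160.3 (median 135) CPM in activated libraries (log2 fold change -1.11, SE 0.13, edgeR adjusted p = 0.000198). Rgs2, another member of the Rgs13 family, was at 281, 244 and 264 CPM in GC and 0.542 to 3.33 (median 2.04) CPM in activated libraries, with 77.6 to 118 in naive libraries (log2 fold change -7.01, SE 0.33, edgeR adjusted p = 6.3e-06). Rgs16, by contrast, was at 0.127, 0.0545 and 0.0659 CPM in GC and 1.18 to 4.38 (median 2.77) in activated libraries (log2 fold change 5.02, SE 0.68, edgeR adjusted p = 0.000503). Efnb1, an ephrin that shapes contact with T follicular helper cells, was at 119.8, 128 and 117 CPM in GC and 1.11 to 8.25 (median 2.99) CPM in activated libraries (log2 fold change -4.90, SE 0.49, edgeR adjusted p = 0.000462). Plxnb2, a semaphorin receptor used in those contacts, rose part of the way, with 3.67 to 23.7 CPM in naive, 55.6 to 91.8 (median 73.0) in activated and 299, 262 and 302 in GC libraries (log2 fold change -2.01, SE 0.15, edgeR adjusted p = 2.58e-05). Rhoh, an atypical small GTPase, was at 525, 483 and 542 CPM in GC and 39.6 to 58.8 (median 51.2) CPM in activated libraries (log2 fold change -3.39, SE 0.13, edgeR adjusted p = 1.97e-06). The highest activated library lay below the lowest GC library in each of these genes except Rgs16.

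The 12 protein-coding genes with the widest gaps among those not induced were Rgs13, Nuggc, Hmces, Clec12a, Rgs2, Pdzd2, Cpne5, 2510009E07Rik, Apoe, Ifit1bl1, Tox2 and Tox. Nuggc, a nuclear GTPase of GC B cells, was at 609, 534 and 669.6 CPM in GC and 0 to 5.73 (median 0.248) in activated libraries (log2 fold change -9.05, SE 1.58, edgeR adjusted p = 0.00649). Tox and Tox2, HMG box factors best known in T cells, were at 36.2, 35.9 and 35.3 and 27.3, 35.5 and 26.4 CPM in GC libraries. In culture Tox had a median of 0 and reached 1.24 CPM, and Tox2 was above 0 in 1 of 9 libraries at 0.222 CPM (edgeR adjusted p = 0.00489 and 8.78e-05). Clec12a, an inhibitory lectin receptor, was at 112, 91.5 and 95.3 CPM in GC and 0 to 0.434 (median 0.204) CPM in activated libraries (log2 fold change -8.96, SE 0.82, edgeR adjusted p = 0.000484). Apoe, the lipid carrier, was at 349, 397 and 388 CPM in GC and 3.12 to 8.86 (median 4.32) CPM in activated libraries (log2 fold change -6.31, SE 0.19, edgeR adjusted p = 6.34e-07). Cpne5, a calcium-binding copine, was at 123, 109 and 98.8 CPM in GC and 0.186 to 3.48 (median 0.814) CPM in activated libraries (log2 fold change -6.83, SE 0.52, edgeR adjusted p = 0.000128). Pdzd2 (59.7, 52.3 and 70.1 CPM in GC) and 2510009E07Rik (60.2, 53.9 and 63.0) stayed under 1 CPM in all 9 activated libraries (edgeR adjusted p = 6.8e-06 and 0.000959). Ifit1bl1, of an interferon-induced family whose members share sequence, was at 54.3, 37.2 and 37.5 CPM in GC and reached 1.28 CPM in culture. Its edgeR adjusted p was 0.00963.

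**Figure D2:**
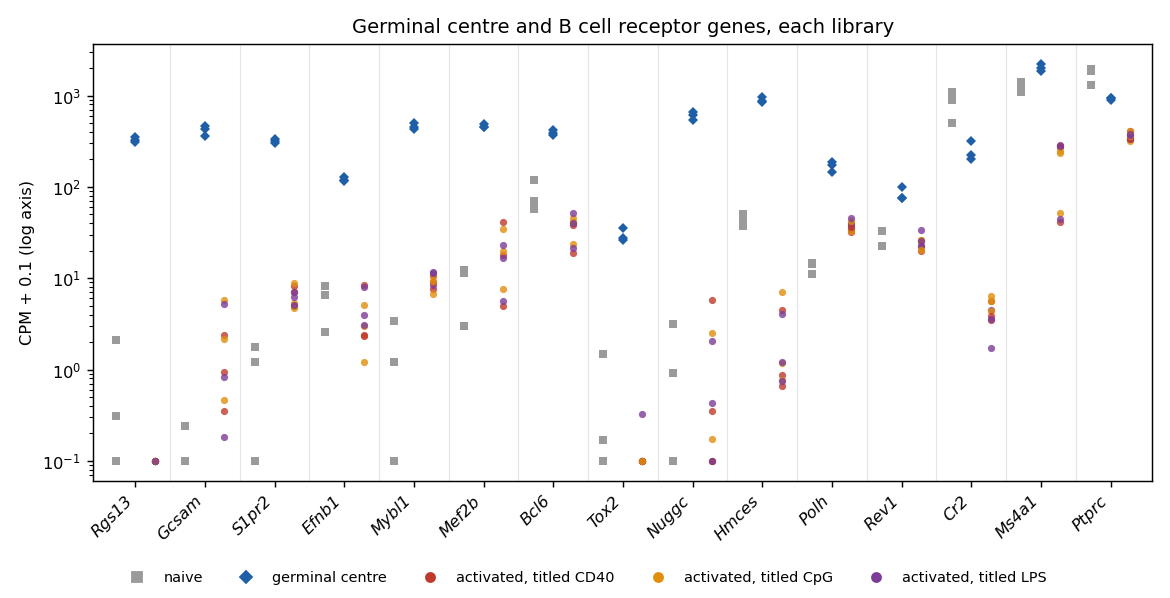
CPM + 0.1 on a log axis in each library for 15 genes, with naive libraries as grey squares, GC libraries as blue diamonds and the 9 activated libraries as circles coloured by titled stimulus. GC libraries lie above all activated libraries for each of the 15 genes.

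Many of the genes of antibody mutation and of the repair that follows it were lower in culture. Of 20 mutation and repair genes tested, 13 were lower, 2 higher and 5 not called, and 7 were lower in all 9 (median log2 fold change -0.70). With the naive libraries in the fit the lower count was 8. Hmces, which shields abasic sites in single-stranded DNA, showed the widest gap at 972, 856 and 866 CPM in GC and 0.558 to 6.93 (median 1.09) in activated libraries (log2 fold change -8.65, SE 1.03, edgeR adjusted p = 0.00155). It was at 36.9 to 50.8 CPM in naive libraries, above every activated library. Polh, the translesion polymerase that makes mutations at A and T bases, was at 186, 174 and 146 CPM in GC and 32.0 to 45.9 (median 37.5) CPM in activated libraries (log2 fold change -2.15, SE 0.14, edgeR adjusted p = 1e-05). Rev1, a translesion deoxycytidyl transferase, was at 75.4, 76.4 and 100.3 CPM in GC and 19.7 to 33.6 (median 25.3) CPM in activated libraries (log2 fold change -1.77, SE 0.16, edgeR adjusted p = 6.35e-05). Rpa1, a single-strand DNA-binding subunit, was at 423, 429 and 383 CPM in GC and 106 to 171 (median 149.6) CPM in activated libraries (log2 fold change -1.52, SE 0.16, edgeR adjusted p = 0.000125). Fam72a, which promotes the loss of the glycosylase UNG, was at 23.8, 23.0 and 26.0 CPM in GC and 7.02 to 11.1 (median 8.76) CPM in activated libraries (log2 fold change -1.43, SE 0.17, edgeR adjusted p = 0.000293). The mismatch repair gene Msh6 (-0.65, edgeR adjusted p = 0.00164) and the uracil glycosylase gene Ung (-0.47, 0.0151) were lower by less than 2-fold, without overlap. Smug1, another uracil glycosylase, and Trp53bp1, an end-joining factor, were higher at 0.71 (edgeR adjusted p = 0.0303) and 0.50 (0.0132). The Smug1 call was lost under 10 of 18 alternatives (adjusted p up to 0.159), among them each activated letter left out and GC replicates B or C left out. The Trp53bp1 call was lost under 4 (up to 0.370), among them activated replicate A and GC replicates A or B left out. The Ung call was lost with CD40 libraries alone, without GC replicate A and with the naive libraries in the fit (adjusted p up to 0.632), where that of Fam72a was lost too (0.454).

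Receptors through which B cells sense antigen and its complement and antibody coats were lower in culture. Of 22 B cell receptor and coreceptor genes tested, 15 were lower, 1 higher and 6 not called, and 12 were lower in all 9 (median log2 fold change -1.08). Cr2, the complement receptor, was at 226, 202 and 319.7 CPM in GC and 1.62 to 6.31 (median 4.25) in activated libraries (log2 fold change -5.86, SE 0.28, edgeR adjusted p = 5.4e-06), against 503 to 1108 in naive libraries. Fcrla and Fcrl1, of the Fc receptor-like family, were at 245, 249.6 and 192 and 269.7, 272 and 294 CPM in GC libraries. In activated libraries they were at 4.71 to 16.6 (median 6.95) and 4.82 to 16.1 (median 9.85) CPM (log2 fold change -4.82, SE 0.36, edgeR adjusted p = 6.96e-05 for Fcrla and log2 fold change -4.73, SE 0.37, edgeR adjusted p = 9.23e-05 for Fcrl1). The inhibitory Fc receptor Fcgr2b was at 210.2, 190.2 and 172 CPM in GC and 6.11 to 42.4 (median 24.7) CPM in activated libraries (log2 fold change -3.04, SE 0.63, edgeR adjusted p = 0.0121). Among the kinases that carry the receptor's signal, Syk was at 769, 731 and 950.0 CPM in GC and 83.1 to 259.5 (median 184) CPM in activated libraries (log2 fold change -2.24, SE 0.36, edgeR adjusted p = 0.0023). Lyn (-1.78, edgeR adjusted p = 3e-05) and Blk (-2.21, 0.000694) were also lower in all 9. Cd81, a tetraspanin of the B cell coreceptor, was the exception, at 186, 177 and 166 CPM in GC and 216 to 352 (median 255) in activated libraries (log2 fold change 0.63, SE 0.16, edgeR adjusted p = 0.0102), a call lost with the naive libraries in the fit (adjusted p = 0.117). Ms4a1, which encodes CD20, was at 2230.3, 1989 and 1839 CPM in GC and 41.3 to 285 (median 247) CPM in activated libraries (log2 fold change -3.38, SE 0.70, edgeR adjusted p = 0.0109), with means of 266, 45.9 and 271 in letters A, B and C. Ptprc, which encodes CD45 and B220, was at 953, 948 and 902 CPM in GC and 315 to 411 (median 358) CPM in activated libraries (log2 fold change -1.37, SE 0.13, edgeR adjusted p = 6.91e-05). Cr2, Fcrl1, Syk and Ptprc were higher in naive than in GC libraries, so their levels in culture lay below both uncultured states.

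Cell cycle genes were expressed in both groups and lower in culture. Of 28 S phase genes 23 were lower and 5 not called, and of 30 genes of G2 and mitosis 29 were lower and 1 was not called. No member of either list was higher, and 13 and 16 members were lower in all 9 (median log2 fold changes -0.90 and -1.03). With the naive libraries in the fit the second count fell from 29 to 10. Mki67, a protein of dividing cells, was at 1355, 1542 and 1672 CPM in GC, 395 to 688 (median 577) in activated and 8.95 to 11.3 in naive libraries (log2 fold change -1.46, SE 0.19, edgeR adjusted p = 0.000454). Pcna, the sliding clamp, was at 568, 595 and 510.0 CPM in GC and 202 to 285 (median 267) CPM in activated libraries (log2 fold change -1.17, SE 0.15, edgeR adjusted p = 0.000321). Of the mitotic genes, Kif23, a cytokinesis motor, was at 222, 226 and 244 CPM in GC and 50.6 to 71.8 (median 62.9) CPM in activated libraries (log2 fold change -1.88, SE 0.11, edgeR adjusted p = 8.82e-06), and the kinetochore gene Ndc80 at 145, 142 and 153 CPM in GC and 34.2 to 49.1 (median 41.7) CPM in activated libraries (log2 fold change -1.83, SE 0.11, edgeR adjusted p = 8.82e-06). Cenpa, a centromeric histone, was the member of its list that was not called, at 173, 164 and 152 CPM in GC and 105 to 159 (median 125) CPM in activated libraries (edgeR adjusted p = 0.109), and it was called lower without activated replicate B (edgeR adjusted p = 0.0187). The activated levels of Mki67, Kif23 and Ndc80 were above all naive libraries and below all GC libraries.

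Genes that IL-4 and related cytokines switch on were much higher in culture. Of 17 genes of the IL-4 and STAT6 list tested, 15 were higher in all 9 and 2 were not called, with a median log2 fold change of 3.85. Cish, a SOCS family inhibitor of STAT5 signalling, had 2 counts over the 3 GC libraries and was at 207 to 316 (median 261) CPM in activated libraries. The ratio was 12772 (95% counting interval 3536 to 105460), with edgeR adjusted p = 6.34e-07. Socs2, which restrains growth hormone and cytokine receptors, was at 1.59, 1.47 and 0.198 CPM in GC and 518 to 826 (median 639) in activated libraries (log2 fold change 9.21, SE 0.66, edgeR adjusted p = 0.000136), with 0 in all naive libraries. Socs1 was at 15, 16.9 and 14.2 CPM in GC and 63.4 to 129.8 (median 89.8) CPM in activated libraries (log2 fold change 2.62, SE 0.18, edgeR adjusted p = 1.49e-05). Socs3 was at 3.31, 2.89 and 2.83 CPM in GC and 125 to 349.7 (median 165) CPM in activated libraries (log2 fold change 6.10, SE 0.37, edgeR adjusted p = 2.24e-05), and naive libraries, at 58.9 to 427 CPM of Socs3, overlapped the activated ones. Il4ra, the IL-4 receptor, was at 172, 165 and 179 CPM in GC and 1457 to 1958 (median 1556) in activated libraries (log2 fold change 3.24, SE 0.15, edgeR adjusted p = 3.17e-06). Ccl22, a chemokine that draws T cells, was at 0.127, 0.818 and 1.98 CPM in GC and 312 to 841 (median 699) CPM in activated libraries (log2 fold change 9.30, SE 0.89, edgeR adjusted p = 0.000621). Pim2, a survival kinase, was at 27.0, 24.2 and 28.5 CPM in GC and 300.4 to 638 (median 355) CPM in activated libraries (log2 fold change 3.99, SE 0.27, edgeR adjusted p = 1.8e-05). Gfi1, a zinc finger repressor, was at 3.12, 4.15 and 3.43 CPM in GC and 24.3 to 47.6 (median 28.8) CPM in activated libraries (log2 fold change 3.22, SE 0.25, edgeR adjusted p = 2.71e-05). Fcer2a encodes CD23, which binds IgE with low affinity. It was at 56.7, 64.6 and 71.6 CPM in GC and 149.6 to 980.2 (median 183) in activated libraries (log2 fold change 2.73, SE 0.80, edgeR adjusted p = 0.0393), and its letter means were 945, 182 and 154 CPM in A, B and C. The Fcer2a call did not hold when any 1 GC library was left out (adjusted p 0.103 to 0.113).

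The 12 protein-coding genes with the widest gaps among those added were Thy1, Cish, Ccl22, Htr7, Tmem176a, Vdr, Pros1, Lad1, Ptgs1, Vegfa, Mpzl2 and Spsb1. Thy1, a surface glycoprotein of mouse T cells and some activated cells, was at 0.382, 0 and 0 CPM in GC and 389 to 801 (median 423) in activated libraries (log2 fold change 12.08, SE 0.91, edgeR adjusted p = 0.00021). Of the other T cell genes, Cd3d, Cd3e and Cd3g reached at most 1.16 CPM in any of the 12 libraries, and Cd8a reached 5.68 CPM in culture. Whether T cells have a part in the Thy1 level was not tested beyond these values. Pros1, the anticoagulant protein S and a ligand of TAM receptors, had 0 GC counts and was at 129.8 to 152 (median 136) CPM in culture (at least 4576-fold higher, edgeR adjusted p = 1.13e-06), the narrowest range of the 12. Tmem176a, a membrane protein of antigen-presenting cells, was at 0.509, 2.29 and 0.461 CPM in GC and 279.9 to 762 (median 442) CPM in activated libraries (log2 fold change 8.79, SE 0.81, edgeR adjusted p = 0.000528). Lad1, a filament-anchoring protein, was at 0, 0 and 0.198 CPM in GC and 68.1 to 253 (median 134) CPM in activated libraries (log2 fold change 11.17, SE 0.91, edgeR adjusted p = 0.000282). Ptgs1, which encodes cyclooxygenase 1, had 0 GC counts and was at 28.1 to 206 (median 112) CPM (at least 3602-fold higher, edgeR adjusted p = 0.00955). Mpzl2, an adhesion molecule, had 0 GC counts and was at 32.7 to 266 (median 53.1) CPM (at least 3422-fold higher, edgeR adjusted p = 0.0132). Spsb1, a SOCS box adaptor, had 2 GC counts and was at 77.9 to 126 (median 111) CPM, a ratio of 5225 (95% counting interval 1446 to 43144), with edgeR adjusted p = 1.5e-06. Vegfa is described with the hypoxia genes. Vdr, Lad1 and Ptgs1 were highest in letter B and Mpzl2 in letter A.

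**Figure D3:**
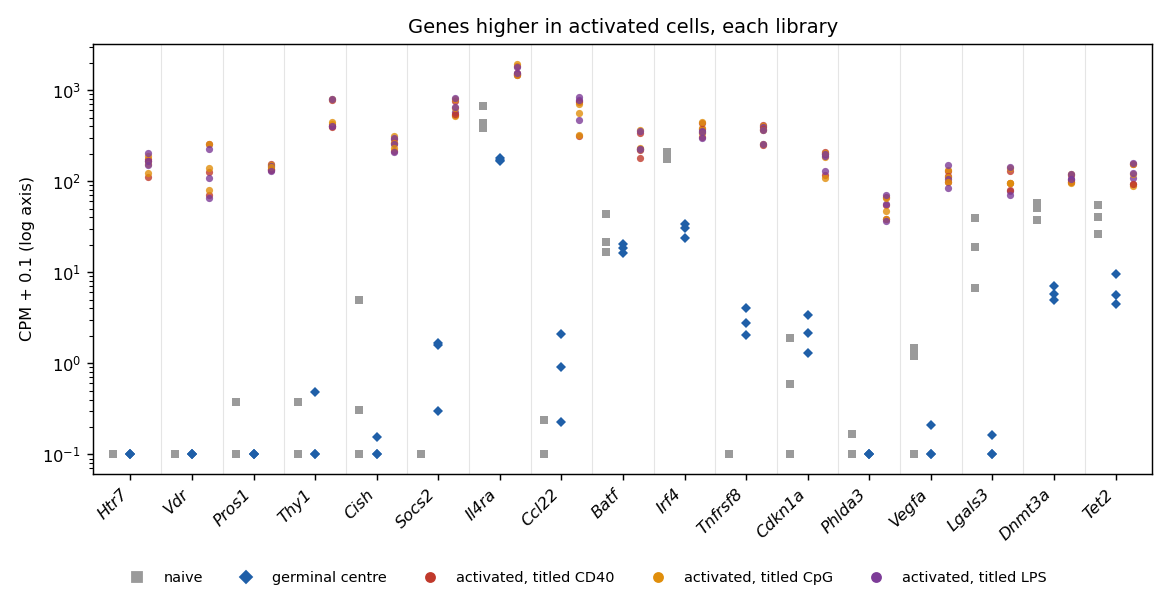
CPM + 0.1 on a log axis in each library for 17 genes higher in all 9 activated libraries, with naive libraries as grey squares, GC libraries as blue diamonds and activated libraries as circles coloured by titled stimulus. All activated libraries lie above all GC libraries for each gene, and for Il4ra, Irf4, Lgals3, Dnmt3a and Tet2 the GC libraries also lie below the naive ones.

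Genes that CD40 and NF-kB switch on were mostly higher. In the list of CD40 and light zone genes 14 of 24 tested were higher, 4 lower and 6 not called, with 13 higher and 3 lower in all 9 (median log2 fold change 1.21). Without GC replicate B, or with the naive libraries in the fit, 2 were lower. Irf4, a factor that guides class switching and plasma cell fate, was at 23.4, 34.0 and 30.3 CPM in GC, 295 to 447 (median 355) in activated and 174 to 209 in naive libraries (log2 fold change 3.63, SE 0.18, edgeR adjusted p = 3.75e-06). Batf, its AP-1 partner, was at 16.1, 20.3 and 18.5 CPM in GC and 179.5 to 367 (median 226) CPM in activated libraries (log2 fold change 3.85, SE 0.22, edgeR adjusted p = 7.51e-06), and Batf3, which had 0 GC counts, at 16.4 to 207 (median 61.7) CPM (at least 2892-fold higher, edgeR adjusted p = 0.0177). Myc, the growth regulator, was at 29.3, 38.3 and 26.6 CPM in GC and 141 to 269.9 (median 188) CPM in activated libraries (log2 fold change 2.66, SE 0.24, edgeR adjusted p = 7.72e-05), with 135 to 434 in naive libraries. Cd83 (log2 fold change 1.83, SE 0.20, edgeR adjusted p = 0.000149) and Cd80 (log2 fold change 2.44, SE 0.35, edgeR adjusted p = 0.000776), surface molecules of cells that present antigen, were higher in all 9. Ebi3, a subunit of IL-27 and IL-35, was at 2.55, 2.86 and 2.11 CPM in GC and 52.3 to 92.3 (median 55.3) CPM in activated libraries (log2 fold change 4.66, SE 0.23, edgeR adjusted p = 3.96e-06). Egr2, an early growth response factor, was at 6.49, 8.89 and 5.54 CPM in GC and 76.4 to 146 (median 127) CPM in activated libraries (log2 fold change 4.07, SE 0.27, edgeR adjusted p = 1.82e-05). The NF-kB genes Nfkb2 (1.77, edgeR adjusted p = 0.00195) and Tnfaip3, which encodes the inhibitor A20 (3.27, 1.1e-05), rose as well. A pair of members went against the list by more than 2 log2 units. Gadd45b, a stress-induced regulator, was at 227, 212 and 221 CPM in GC and 25.2 to 41.0 (median 30.3) CPM in activated libraries (log2 fold change -2.85, SE 0.12, edgeR adjusted p = 2.62e-06). Slamf1, an adhesion receptor shared with T cells, was at 83.2, 81.3 and 94.1 CPM in GC and 7.51 to 26.4 (median 14.4) CPM in activated libraries (log2 fold change -2.46, SE 0.26, edgeR adjusted p = 0.00016).

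Of 19 TNF family receptors and ligands tested, 8 were higher (42.1%), 5 lower (26.3%) and 6 not called, and 8 were higher and 4 lower in all 9. Among all genes tested 23.6% were higher and 21.5% lower, so the lower share was near that of all genes. The lower count was 2 or 3 when any 1 GC library or activated replicate C was left out, and 2 with the naive libraries in the fit. Tnfrsf8, which encodes CD30, was at 2.67, 1.96 and 3.95 CPM in GC and 251 to 416 (median 367) in activated libraries (log2 fold change 6.91, SE 0.33, edgeR adjusted p = 6.3e-06), and Tnfsf8, its ligand, had 0 GC counts and was at 2.24 to 13.9 (median 10.3) CPM (at least 282-fold higher, edgeR adjusted p = 0.000814). Lymphotoxin genes were lower. Lta was at 133, 114 and 141 CPM in GC and 15.6 to 33.9 (median 21.1) CPM in activated libraries (log2 fold change -2.52, SE 0.22, edgeR adjusted p = 4.78e-05), and Ltb at 429.8, 401 and 388 CPM in GC and 17.8 to 133 (median 46.2) CPM in activated libraries (log2 fold change -2.60, SE 0.67, edgeR adjusted p = 0.0255), a call lost without any 1 GC library or activated replicate C (adjusted p up to 0.0653) and with no filter on low counts (0.0774). Tnf was at 27.8, 32.2 and 27.9 CPM in GC and 9.05 to 17.1 (median 11.7) CPM in activated libraries (log2 fold change -1.20, SE 0.19, edgeR adjusted p = 0.00109). Fas, the death receptor that GC cells carry, was at 154, 134 and 166 CPM in GC, 34.2 to 103 (median 76.9) in activated and 3.46 to 14.3 in naive libraries (log2 fold change -1.05, SE 0.27, edgeR adjusted p = 0.015), which was no longer called without GC replicate C or with the naive libraries in the fit (adjusted p up to 0.145). Fas in culture lay above every naive library and below every GC library.

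Cytokine genes with 0 counts in all GC libraries appeared in culture at low levels. Il6 was at 1.90 to 20.6 (median 13) CPM (at least 381-fold higher, edgeR adjusted p = 0.00235) and Lif at 0.486 to 5.99 (median 2.29) CPM (at least 80.3-fold higher, edgeR adjusted p = 0.000967). Csf1, the macrophage growth factor, was far more abundant, at 0.764, 1.31 and 1.12 CPM in GC and 244 to 378 (median 294) in activated libraries (log2 fold change 8.17, SE 0.25, edgeR adjusted p = 6.34e-07). Of 26 cytokine and chemokine genes 18 were tested, and 8 were higher, 2 lower and 8 not called. Il2, Il5, Il12b, Il13, Il21, Ifng, Csf2 and Il1b were too low to be tested.

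Survival genes did not move one way. Of 21 tested, 12 were higher (57.1%), 6 lower (28.6%) and 3 not called, and 9 and 3 were so in all 9. The shares of all genes tested were 23.6% and 21.5%. The lower count was 3 without GC replicate A or B and 2 with the naive libraries in the fit. Among those that protect cells, Bcl2 was at 0.7, 2.62 and 1.71 CPM in GC, 20.7 to 47.0 (median 39.7) in activated and 95.5 to 123 in naive libraries (log2 fold change 4.42, SE 0.49, edgeR adjusted p = 0.000376). Bcl2l1, which encodes BCL-XL, was at 17.0, 22.5 and 18.5 CPM in GC and 76.7 to 109.9 (median 92.1) CPM in activated libraries (log2 fold change 2.26, SE 0.15, edgeR adjusted p = 1.21e-05), a call lost with the naive libraries in the fit (adjusted p = 0.0740). Bcl2a1d, whose reads can be shared with near-identical copies, was at 25.7, 25.9 and 23.3 CPM in GC and 147 to 457 (median 252) CPM in activated libraries (log2 fold change 3.39, SE 0.22, edgeR adjusted p = 1.21e-05). Of those that kill, Bcl2l11, which encodes BIM, was at 59.2, 55.0 and 35.0 CPM in GC and 205 to 350.2 (median 289) CPM in activated libraries (log2 fold change 2.49, SE 0.23, edgeR adjusted p = 8.19e-05) and Bbc3, which encodes PUMA, at 6.94, 10.5 and 8.27 CPM in GC and 34.1 to 67.0 (median 45.6) CPM in activated libraries (log2 fold change 2.48, SE 0.25, edgeR adjusted p = 0.0001). Bid went the other way, at 159, 153 and 157 CPM in GC and 30.6 to 64.3 (median 49.1) CPM in activated libraries (log2 fold change -1.72, SE 0.21, edgeR adjusted p = 0.000286). Genes for and against survival were both among the higher set.

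Targets of p53 were higher in most cases, with 12 of 18 tested higher, 3 lower and 3 not called (median log2 fold change 1.94). Cdkn1a, the cell cycle inhibitor p21, was at 1.21, 3.27 and 2.04 CPM in GC and 109 to 207 (median 189) in activated libraries (log2 fold change 6.28, SE 0.42, edgeR adjusted p = 5.06e-05). Phlda3, an inhibitor of AKT, had 0 GC counts and was at 36.5 to 70.6 (median 54.7) CPM (at least 1706-fold higher, edgeR adjusted p = 1.08e-05). Ccng1 was at 103, 114 and 96.2 CPM in GC and 423 to 522 (median 461) CPM in activated libraries (log2 fold change 2.17, SE 0.12, edgeR adjusted p = 6.35e-06), Zmat3, an RNA-binding protein, at 11.6, 12.3 and 9.95 CPM in GC and 86.0 to 114 (median 96.3) CPM in activated libraries (log2 fold change 3.12, SE 0.15, edgeR adjusted p = 3.17e-06). Sesn2, a stress sensor, was at 9.55, 6.55 and 7.71 CPM in GC and 83.8 to 143 (median 112) CPM in activated libraries (log2 fold change 3.84, SE 0.21, edgeR adjusted p = 6.3e-06). Bax was higher by less than 2-fold (0.97, edgeR adjusted p = 0.000655). Sesn1, the sestrin of resting cells, was lower in all 9 at 32.3, 26.6 and 33.8 CPM in GC and 7.67 to 14.9 (median 10.7) CPM in activated libraries (log2 fold change -1.51, SE 0.21, edgeR adjusted p = 0.000549), and naive libraries had 113 to 187. Fas and Gadd45a were the other 2 that were lower.

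Metabolic genes split between glycolysis and respiration. Of 21 glycolysis and hypoxia genes 19 were higher, 17 of them in all 9, and 2 were not called (median log2 fold change 1.64). Vegfa, the vascular growth factor, was at 0, 0.109 and 0 CPM in GC and 84.8 to 152 (median 110.4) in activated libraries (log2 fold change 11.38, SE 0.50, edgeR adjusted p = 4.9e-06). Slc16a3, a lactate exporter, was at 2.80, 4.28 and 2.64 CPM in GC and 58.0 to 236 (median 89.7) CPM in activated libraries (log2 fold change 5.24, SE 0.55, edgeR adjusted p = 0.000631). Bnip3, a mitophagy receptor, was at 4.20, 3.46 and 3.36 CPM in GC and 27.6 to 97.2 (median 43.4) CPM in activated libraries (log2 fold change 3.93, SE 0.39, edgeR adjusted p = 0.000212). Pdk1, which keeps pyruvate out of mitochondria, was at 13.3, 16.2 and 13 CPM in GC and 70.5 to 142 (median 83.0) CPM in activated libraries (log2 fold change 2.76, SE 0.23, edgeR adjusted p = 4.15e-05). The enzymes Hk2 (2.38, edgeR adjusted p = 1.08e-05) and Aldoa (1.64, 0.00174) were higher in all 9. Hif1a itself, the oxygen-sensing factor, was not called at 134, 128 and 129 CPM in GC and 56.9 to 128 (median 74.9) CPM in activated libraries (edgeR adjusted p = 0.0586), and was called lower without activated replicate A (edgeR adjusted p = 0.00175). Respiratory chain genes were lower in 13 of 24 tested, higher in 1 and not called in 10, and 2 were lower in all 9 (median log2 fold change -0.38). Those 2 were Sdhb (-1.08, edgeR adjusted p = 9.23e-05) and Ndufa4 (-1.07, 0.000215), while Sdhc was the higher one (0.38, 0.0325). The Sdhc call was lost under 7 of 18 alternatives, among them each single GC library and activated replicates B or C left out (adjusted p up to 0.148). With the naive libraries in the fit 6 respiratory genes were lower.

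Cholesterol synthesis genes were higher in 19 of 21 tested, 9 of them in all 9 libraries, and 2 were not called (median log2 fold change 0.92). The count was 12 with the naive libraries in the fit. Mvd, a decarboxylase of the mevalonate pathway, was at 23.4, 20.2 and 25.8 CPM in GC and 102 to 170.4 (median 109.7) in activated libraries (log2 fold change 2.46, SE 0.20, edgeR adjusted p = 3.64e-05). In amino acid metabolism 7 of 19 genes were higher (4 with the naive libraries in the fit), 1 lower and 11 not called. Got1, an aspartate aminotransferase, was at 15.3, 18.7 and 16.9 CPM in GC and 89.2 to 106 (median 98.9) CPM in activated libraries (log2 fold change 2.55, SE 0.12, edgeR adjusted p = 3.4e-06). Ribosome biogenesis genes gave 6 higher, 3 lower and 15 not called of 24, a share of higher members near that of all genes. None of these changes was shared by all 9 libraries. With the naive libraries in the fit 3 were higher.

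**Figure D4:**
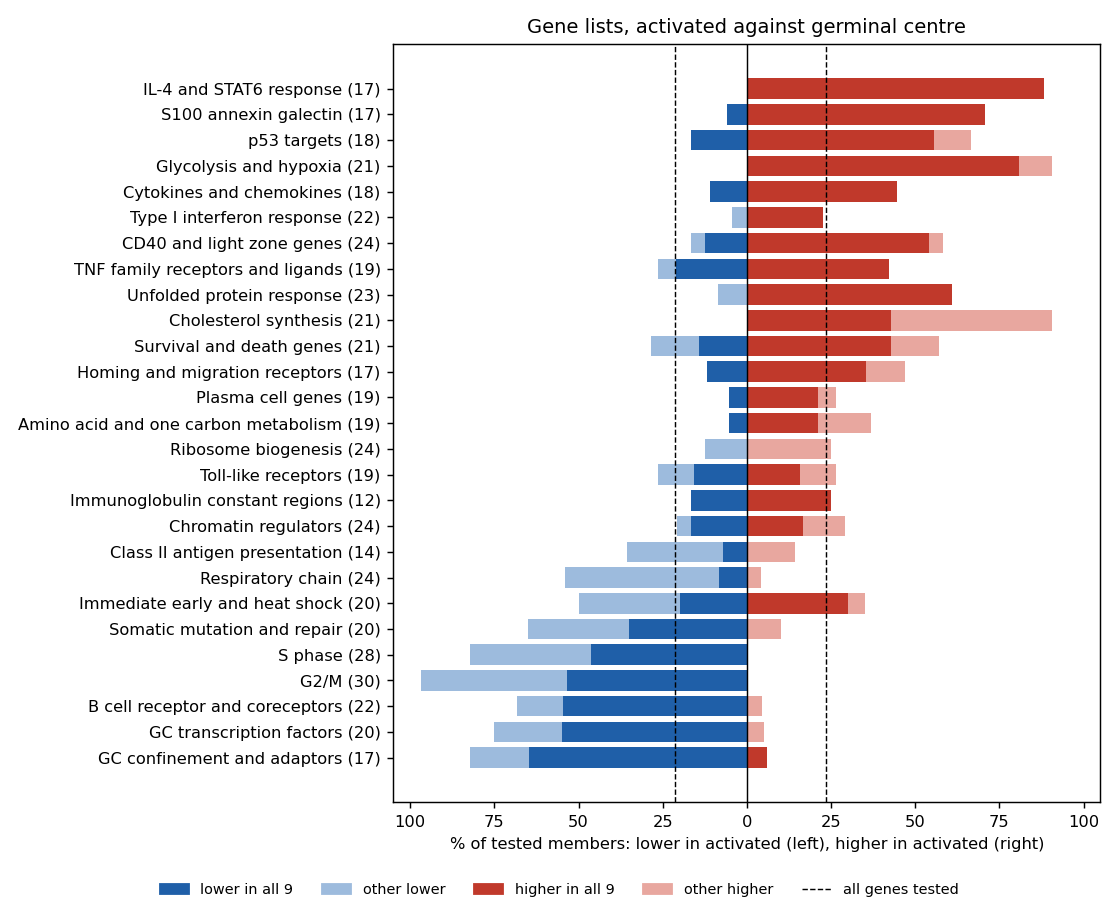
Share of the tested members of each gene list with at least 10 tested (number tested in brackets), lists of other cell types left out, that were lower (left, blue) or higher (right, red) in activated cells, with dark bars for members changed at least 2-fold without overlap in all 9 libraries, and lists ordered by median log2 fold change. Dashed lines mark the shares of all genes tested, 21.5% lower and 23.6% higher, and among the lists drawn those of mitosis and GC confinement reach furthest left while IL-4 response, glycolysis and cholesterol lists reach furthest right.

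Part of the secretory programme was higher in culture. Of 23 genes of the unfolded protein response 14 were higher, all of them in all 9 libraries, 2 were lower and 7 were not called (median log2 fold change 1.06). Pdia4, a disulfide isomerase of the endoplasmic reticulum, was at 65.1, 93.9 and 73.5 CPM in GC and 347 to 991 (median 602) in activated libraries (log2 fold change 3.02, SE 0.36, edgeR adjusted p = 0.00057). Ern1, the sensor kinase IRE1, was at 1.97, 4.85 and 3.43 CPM in GC and 7.26 to 37.7 (median 13.6) CPM in activated libraries (log2 fold change 2.36, SE 0.55, edgeR adjusted p = 0.00995), while Syvn1, a ubiquitin ligase of that compartment, was lower (-0.86, edgeR adjusted p = 0.00252). In the plasma cell list 5 of 19 were higher, 1 lower and 13 not called, a share of higher members near that of all genes. Without activated replicate B 9 were higher, and without activated replicate C 4 were lower. Xbp1, the factor that drives secretory expansion, was at 157, 199 and 146 CPM in GC and 813 to 1516 (median 1344) CPM in activated libraries (log2 fold change 2.83, SE 0.23, edgeR adjusted p = 3.82e-05). Mzb1, a chaperone of antibody assembly, was at 546, 556 and 462 CPM in GC and 855 to 1739 (median 1104) CPM in activated libraries (log2 fold change 1.20, SE 0.22, edgeR adjusted p = 0.00219). Prdm1, which encodes BLIMP1, was at 2.48, 9.98 and 5.07 CPM in GC and 2.83 to 78.5 (median 10.8) CPM in activated libraries and was not called (edgeR adjusted p = 0.194), with letter means of 10.2, 3.66 and 71.6 CPM. Jchain, the joining chain of secreted IgM and IgA, was at 1498, 1587 and 1266 CPM in GC and had letter means of 89.8, 17.9 and 2171 CPM in culture (edgeR adjusted p = 0.673). Without activated replicate C it was called lower (edgeR adjusted p = 0.00586). Zbtb20, a repressor that supports long-lived plasma cells, was lower at 95.5, 88.4 and 109 CPM in GC and 7.71 to 25.5 (median 10.4) CPM in activated libraries (log2 fold change -2.77, SE 0.38, edgeR adjusted p = 0.00121).

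Antibody constant region genes as a list did not stand apart. Of 12 tested 3 were higher, 2 lower and 7 not called, shares near those of all genes (23.6% and 21.5%). All 5 calls held in all 9 libraries. Without activated replicate C 6 were lower. Ighe, the constant region of IgE, was at 17.4, 15.9 and 18.3 CPM in GC and 204 to 2737 (median 2369.9) in activated libraries (log2 fold change 6.63, SE 1.08, edgeR adjusted p = 0.00504), with 0 in naive libraries and letter means of 2321, 212 and 2588 CPM. Ighg1 was at 1585, 1349 and 1431 CPM in GC and 2962 to 10299 (median 4248) CPM in activated libraries (log2 fold change 1.93, SE 0.40, edgeR adjusted p = 0.00647), a call lost with the naive libraries in the fit (adjusted p = 0.108). Ighg2b was lower, at 1193, 2149.9 and 1561 CPM in GC and 7.85 to 162 (median 119) CPM in activated libraries (log2 fold change -4.14, SE 1.07, edgeR adjusted p = 0.0256). Ighg2c was lower too, at 226, 687 and 304 CPM in GC and 0.626 to 32.9 (median 6.49) CPM in activated libraries (log2 fold change -5.27, SE 1.18, edgeR adjusted p = 0.0155). These constant regions resemble each other, so reads could be split between them. The Ighg2b call was lost without activated replicate B, GC replicate B or GC replicate C (adjusted p up to 0.0679), and that of Ighg2c without activated replicate B (0.0507). With no filter on low counts both were lost (adjusted p = 0.0780 for Ighg2b and 0.0527 for Ighg2c). Ighd, the IgD class of unswitched cells, was at 35.9, 35.7 and 38.8 CPM in GC, 96.6 to 211 (median 196) in activated and 2961 to 4279.7 in naive libraries (log2 fold change 2.18, SE 0.23, edgeR adjusted p = 0.000193). Ighm was at 3279, 3055 and 3026 CPM in GC and 3463 to 29718 (median 4049.9) CPM in activated libraries and was not called (edgeR adjusted p = 0.134).

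Homing receptor genes were higher in culture more often than lower. Of 17 tested, 8 were higher, 2 lower and 7 not called, and 6 and 2 were so in all 9. Ccr7, the receptor that leads cells to the T cell zone, was at 0.191, 0.818 and 0.132 CPM in GC, 16.2 to 122 (median 87.8) in activated and 186 to 278 in naive libraries (log2 fold change 7.50, SE 0.94, edgeR adjusted p = 0.00179). Klf2, a factor that drives such homing genes, showed the same order, at 5.41, 5.18 and 10.2, 44.8 to 149 (median 102) and 734 to 1583 CPM (log2 fold change 3.83, SE 0.43, edgeR adjusted p = 0.00054). Gpr183, the oxysterol receptor EBI2 that guides cells to the outer follicle, was at 4.26, 2.24 and 3.82 CPM in GC and 169 to 268 (median 188) in activated libraries (log2 fold change 5.94, SE 0.30, edgeR adjusted p = 6.6e-06). Cd44, a hyaluronan receptor of activated cells, was at 109, 102 and 96.7 CPM in GC and 694 to 947 (median 822) CPM in activated libraries (log2 fold change 3.01, SE 0.14, edgeR adjusted p = 3.41e-06), and Cxcr5, the follicle-homing receptor, was higher by less (0.48, edgeR adjusted p = 0.015), a call lost without GC replicates A or B and with the naive libraries in the fit (adjusted p up to 0.300). The 2 lower genes were Cxcr4, the dark zone chemokine receptor, at 355, 319 and 303 CPM in GC and 29.9 to 95.9 (median 43.5) CPM in activated libraries (log2 fold change -2.52, SE 0.36, edgeR adjusted p = 0.00157), and Cxcr3, at 20.2, 14.8 and 20.2 CPM in GC and at most 0.619 CPM in culture (edgeR adjusted p = 0.00312). Ccr7, Klf2, Bcl2 and Ighd lay between the GC and the naive levels in all 9 activated libraries.

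Toll-like receptor genes gave 5 higher, 5 lower and 9 not called of 19 tested, shares close to those of all genes. Tlr7, a sensor of single-stranded RNA, was at 0.127, 0.382 and 0.329 CPM in GC, 66.0 to 135 (median 107) in activated and 50.4 to 74.8 in naive libraries (log2 fold change 8.50, SE 0.38, edgeR adjusted p = 3.58e-06). Cd180, a receptor that modulates LPS signalling, was at 327, 306 and 293 CPM in GC and 18.9 to 42.4 (median 31.7) CPM in activated libraries (log2 fold change -3.38, SE 0.25, edgeR adjusted p = 2.9e-05). Class II antigen presentation genes gave 2 of 14 higher, 5 lower and 7 not called, and only H2-Ob, a subunit of the peptide-editing inhibitor DO, was lower in all 9 (-1.41, edgeR adjusted p = 0.00028). The lower count was 2 or 3 when any 1 GC library or activated replicate C was left out, and 3 with the naive libraries in the fit. Of 22 type I interferon genes 5 were higher, 1 lower and 16 not called, a share of higher members near that of all genes. Without activated replicate A 8 were higher, without GC replicate A 3 were, and without activated replicate C 5 were lower. Oas1a, a sensor of double-stranded RNA, was at 1.78, 1.31 and 1.25 CPM in GC and had letter means of 9.47, 6.87 and 39.2 CPM in culture (log2 fold change 3.68, SE 0.74, edgeR adjusted p = 0.00656). Irf7 had letter means of 4.79, 5.42 and 52.3 CPM and was not called (edgeR adjusted p = 0.564), but was called lower without activated replicate C (edgeR adjusted p = 2.8e-05).

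S100, annexin and galectin genes, which encode calcium- or sugar-binding proteins of the membrane and cytoskeleton, were higher in 12 of 17 tested, lower in 1 and not called in 4. All 12 were higher in all 9 libraries (median log2 fold change 1.99). Lgals3, galectin 3, had 2 counts in GC libraries and was at 70.9 to 144 (median 95.5) CPM in culture, a ratio of 4994 (95% counting interval 1382 to 41237), with edgeR adjusted p = 3.45e-06. Vim, which encodes vimentin, was at 111, 102 and 107 CPM in GC and 520.2 to 1587 (median 895) CPM in activated libraries (log2 fold change 3.21, SE 0.34, edgeR adjusted p = 0.000292), Anxa5 at 5.35, 4.58 and 5.01 CPM in GC and 35.7 to 63.4 (median 46.8) CPM in activated libraries (log2 fold change 3.31, SE 0.17, edgeR adjusted p = 5.4e-06), and S100a6 at 0.191, 0.436 and 0 CPM in GC and 2.44 to 27.5 (median 15.2) CPM in activated libraries (log2 fold change 6.01, SE 1.17, edgeR adjusted p = 0.00669). Anxa2 was the member that was lower, at 516, 467 and 408 CPM in GC and 8.77 to 78.3 (median 11.7) CPM in activated libraries (log2 fold change -4.07, SE 0.80, edgeR adjusted p = 0.00972), with letter means of 9.05, 58.6 and 15.3 CPM.

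Chromatin regulators as a list did not stand apart, with 7 of 24 higher, 5 lower and 12 not called (median log2 fold change -0.05). A pair of DNA methylation enzymes was much higher. Dnmt3a, a de novo methyltransferase, was at 5.73, 4.91 and 6.92 CPM in GC, 94.7 to 121 (median 105) in activated and 37.1 to 57.1 in naive libraries (log2 fold change 4.19, SE 0.17, edgeR adjusted p = 2.2e-06). Tet2, a methylcytosine dioxygenase, was at 4.33, 5.51 and 9.49, 88.4 to 159 (median 120.4) and 25.9 to 54.3 CPM (log2 fold change 4.24, SE 0.34, edgeR adjusted p = 7.72e-05). Dnmt1, the maintenance methyltransferase, was lower at 602, 606 and 629 CPM in GC and 216 to 315 (median 267) CPM in activated libraries (log2 fold change -1.21, SE 0.13, edgeR adjusted p = 0.000145), as was Smarca4, the ATPase BRG1, at 645, 608 and 720.0 CPM in GC and 214 to 309 (median 236) CPM in activated libraries (log2 fold change -1.40, SE 0.14, edgeR adjusted p = 0.00012). Within the Polycomb repressive complex, Ezh2 was at 249, 274 and 242 CPM in GC and 215 to 269 (median 230.3) CPM in activated libraries and was not called (edgeR adjusted p = 0.561), while Eed was lower (-1.19, edgeR adjusted p = 9.61e-05). Kdm6b, a demethylase of the Polycomb mark, was higher (1.47, edgeR adjusted p = 0.000382). The medium is one made for embryonic stem cells, and 15 pluripotency genes were looked at. Pou5f1, Nanog, Sox2, Esrrb and Zfp42 had 0 counts in all 9 activated libraries, and 3 of the 15 were tested. Lin28a, an inhibitor of let-7 maturation whose upstream sequence is shown above, was at 0, 0.218 and 0 CPM in GC, 11.8 to 18.9 (median 13.7) in activated and 0 in naive libraries (log2 fold change 7.50, SE 0.84, edgeR adjusted p = 0.000291). The other called member was Klf2.

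Immediate early and heat shock genes gave 7 higher, 10 lower and 3 not called of 20, and 4 were lower with the naive libraries in the fit. Fos, an AP-1 subunit induced early after signalling, was at 105, 150.0 and 145 CPM in GC, 1.02 to 11.3 (median 2.92) in activated and 614 to 2045 in naive libraries (log2 fold change -5.13, SE 0.36, edgeR adjusted p = 4.99e-05). Fosl2, a relative, was higher at 0, 0 and 0.395 CPM in GC and 15.1 to 149.8 (median 33.6) CPM in activated libraries (log2 fold change 8.95, SE 1.48, edgeR adjusted p = 0.00536). Genes of marginal zone and B-1 cells gave 3 higher, 3 lower and 6 not called of 12, shares close to those of all genes. Bhlhe41, a transcriptional repressor that B-1a cells need, was at 0.509, 1.34 and 0.725 CPM in GC and 15.8 to 59.5 (median 31.8) CPM in activated libraries (log2 fold change 5.29, SE 0.56, edgeR adjusted p = 0.000334). Ctla4, an inhibitory receptor, was at 2.99, 3.49 and 1.98 CPM in GC and 19.7 to 64.9 (median 36.6) CPM in activated libraries (log2 fold change 3.83, SE 0.38, edgeR adjusted p = 0.000148). Of the dendritic cell genes, Zbtb46 was at 0.0637, 0.218 and 0 CPM in GC and 16.7 to 39.8 (median 30.6) CPM in activated libraries (log2 fold change 8.16, SE 0.69, edgeR adjusted p = 9.32e-05), and Flt3 was at 47.8, 44.5 and 44.9 CPM in GC and 27.0 to 204 (median 57.6) CPM in activated libraries and was not called (edgeR adjusted p = 0.255).

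Within culture, levels that differed did so by letter more than by titled stimulus. With letter as a block, 80 of 15787 genes (0.507%) differed between the 3 titled stimuli. That count was 0 with no replicate block for letter, 40 without letter A and 210 with no filter on low counts. Prdm1 was highest in letter C in each titled stimulus, as were Jchain and Oas1a, Fcer2a and Mpzl2 were highest in letter A, and Batf3, Vdr and Fosl2 in letter B. Ighe was at 2065 CPM or more in all 6 libraries lettered A or C and between 204 and 227 CPM in B. Titled stimulus and letter were read from the titles as given, and whether a letter marks an animal, a day or a culture was not tested. The labels also cannot settle whether stimulus and letter were exchanged in the titles. If they were, the 3 letter sums would be 3 stimuli, and the 80 genes would differ by replicate and not by stimulus.

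**Figure D5:**
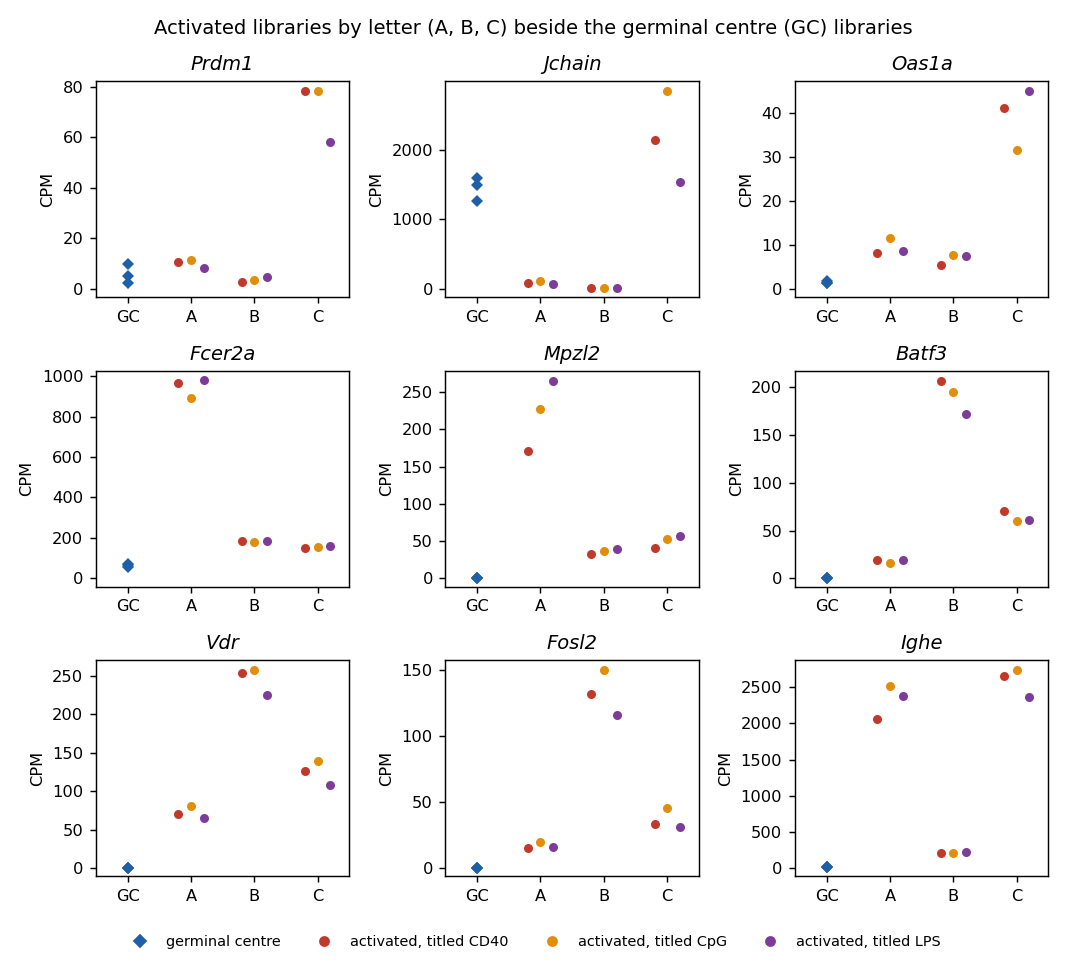
CPM of 9 genes in the 3 GC libraries (blue diamonds) and in the 9 activated libraries, placed by replicate letter on the horizontal axis and coloured by titled stimulus, each panel on its own linear axis. In each panel at least 1 letter lies apart from the others, with Prdm1 at 58 CPM or more in the 3 libraries of letter C and below 12 CPM in the other 6. For Ighe, letters A and C overlap. The 3 titled stimuli of a letter mostly lie close together, although Jchain in letter C spans 1538 to 2843 CPM.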

How the data were processed

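RNA was measured in 15 libraries, of which 9 activated and 3 GC libraries were compared. Reads were aligned with STAR 2.7.10a to mm10 (GRCm38) and counted with featureCounts 2.0.6, per the submitters' processing notes, which also name DESeq2. Strand handling, multi-mapping reads and the annotation release are not given in the sources used here. The authors deposited raw counts for 54838 Ensembl genes. GENCODE M21 named 54809 of them, and the other 29 held at most 0.00872% of a library.

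In R 4.3.3 with edgeR 4.0.16, TMM factors were computed on all 15 libraries and CPM are counts per 1e+06 of TMM-scaled library size. The 9 activated libraries were summed by letter (3 sums) and tested against the 3 GC libraries, with filterByExpr, robust glmQLFit, glmQLFTest and Benjamini-Hochberg adjustment over 16643 genes. The script was tested on simulated counts with 200 of 16643 genes changed. It recovered 28% of changes of 1 log2 unit and 59% of changes of 2 log2 units, and called 4 unchanged genes. A gene not called is therefore not shown to be unchanged. Far fewer genes were changed in the simulation than were called in the data (3924 higher and 3581 lower), and the adjustment depends on that share. The simulated rates need not hold for the comparison itself. Folds against a group at 0 use a floor of 3 counts over that group, and with 1 to 3 counts the ratio has an exact Poisson interval from the lower count. Both cover counting error only, since reads carry no molecular identifiers. Stimuli were compared in the 9 libraries with letter as a block. The 18 alternatives tried included DESeq2 1.42.0. Gene lists (36, with 643 entries, 642 of them in the table) carry no test of their own.

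Genes named are the 5 markers, the 12 protein-coding genes with the widest gap in mean CPM (0.5 added, at least 10 CPM in the higher group) among those not induced and among those added, and members of the lists picked by role, larger changes and exceptions first. Some members of the lists are not reported here by name. Members and lists were chosen with earlier results of these data known.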

Additional observations from a re-analysis of the deposited data

Results flagged for a closer look

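The 9 activated libraries were screened for single libraries far from the other 8 in each gene named. The cutoff flags about 1 in 20 groups of independent, normally spread values. That rate does not hold here, since libraries of one letter deviate together and some genes are mostly at 0. Of 165 genes screened, 10 had such a library. In the CD40-titled library of letter C, Nuggc was at 5.73 CPM, Apoe at 8.86, Tox at 1.24, Cpne5 at 3.48 and Cxcr3 at 0.619, each the highest of the 9. In the LPS-titled library of letter C, Tox2 was at 0.222 CPM and Ifit1bl1 at 1.28, also the highest. Rev1 at 33.6 CPM and Fos at 11.3 CPM stood highest in the LPS-titled library of letter A, and Gadd45b at 41.0 CPM in the CpG-titled library of letter C. All 10 values lay below the lowest GC library of the same gene, where these genes were higher.

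For 9 named genes the activated levels differed between the titled stimuli, by edgeR's quasi-likelihood test with letter as a block and Benjamini-Hochberg adjustment over 15787 genes. Without the block 0 genes differed, these 9 included, so the calls rest on comparing libraries within a letter. Bcl2a1d was at 170.4, 276 and 147 CPM in the CD40-titled libraries A, B and C, at 199, 357 and 207 in the CpG-titled and 298, 457 and 252 in the LPS-titled ones (adjusted p = 3.68e-08), and rose in that order within every letter. Mpzl2 showed the same order at 171, 32.7 and 40.4, 228, 37.0 and 53.1 and 266, 39.4 and 56.4 CPM (adjusted p = 0.00268). Flt3 was highest with CpG in every letter, at 27.0, 165 and 43.7, 44.8, 204 and 64.7 and 36.4, 171 and 57.6 CPM (adjusted p = 0.00268). The other 6 were Slamf1, highest with LPS in every letter (adjusted p = 0.0178), Anxa2 (adjusted p = 0.024), Jchain (adjusted p = 0.0273) and Fosl2 (adjusted p = 0.0308), each highest with CpG in every letter, and Tmem176a (adjusted p = 0.0469), highest with LPS in every letter, and Ctla4 (adjusted p = 0.0469), which was highest with CpG in letters A and C and with LPS in B. Flt3 and Jchain were not called against GC, and the activated libraries of the other 7 did not overlap the GC libraries under any of the 3 titles.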

How the results depend on the processing

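The counts of genes higher, lower and shared by all 9, and of genes that differed between titled stimuli, stayed within 1.5 times the reported ones except where stated. The classes beside naive cells and the list counts in all 9 were not recomputed. With the naive libraries in the fit, 2187 genes were higher, 1849 lower and 1089 lower in all 9. Requiring the nearest activated and GC libraries to be at least 2-fold apart left 1572 genes higher and 889 lower in all 9. Leaving out 1 library or letter gave 3422 to 3679 genes higher, 2896 to 3328 lower, 2337 to 2538 higher in all 9 and 1643 to 1767 lower in all 9. The count between titled stimuli was 210 with no filter on low counts, and 40 to 101 with 1 letter left out, 40 without letter A. Scaling by DESeq2's size factors, by totals or without immunoglobulin and ribosomal protein genes moved the median of all genes to between -0.02 and 0.07. Of 156 named genes that were called, 133 kept the call under every alternative, and none of the called genes changed direction. Batf3, Fcer2a, Ighg2b, Ighg2c, Ltb, Mpzl2, Ptgs1 and Smug1 lost it without the filter on low counts, and Cd80, S100a6 and Tnf were among those that lost it with the naive libraries in the fit. Of 10 named genes not called, 6 were called under at least 1 alternative (Cenpa, Hif1a, Irf7, Jchain, Mef2c and Pou2af1). Of 1296 list counts of higher or lower genes recomputed, 140 moved by over 1.5 times, 23 of them with the naive libraries in the fit. The cause of these shifts was not tested.

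With letter as a replicate block across activated and GC samples, 3356 genes were higher, 3042 lower, 2237 higher in all 9 and 1587 lower in all 9. The calls of Fcer2a, Fcgr2b, Hhex, Ifit1bl1, Ighg2b, Sdhc and Smug1 were lost there, at adjusted p 0.0521 to 0.160. Activated and GC libraries of the same letter did not deviate together (correlations -0.02, -0.10 and -0.09 for A, B and C). No activated letter correlated best with its own GC letter. With so few letters, and cultured set against uncultured cells, these correlations cannot decide whether libraries of the same letter share an animal or a day. Among activated libraries of one letter deviations correlated at 0.551 to 0.689. With no replicate block for letter, 0 genes differed between titled stimuli by edgeR's quasi-likelihood test, and 122 of 15787 had an unadjusted p under 0.05.

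Depth limits genes near 0 counts. Bounds or counting intervals are given where a group held 0 to 3 counts, and the fitted fold changes of Vegfa (4 GC counts), Lad1 (6), Lin28a and Rgs16 (8 each), Zbtb46 (10), Thy1 and Fosl2 (12 each) and Tox2 (8 activated counts) rest on few counts in one group.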
